A study of Mus musculus with 70 samples.

Results

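The cerebellin family of the mouse, Cbln1, Cbln2, Cbln3 and Cbln4, was followed as 4 genes, taken by name from a gene table of 34677 genes and measured in 70 bulk RNA-seq libraries. Each of the 4 passed the filter on low counts that left 19980 genes for testing. Levels are given in TPM, a scale corrected for depth and transcript length, on which levels of different genes can be compared, and differences as log2 fold changes fitted to estimated counts.

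Cerebellins are small secreted glycoproteins that end in a C1q-like domain, assemble into oligomers and act as synaptic organizers. Cbln1, released by cerebellar granule cells, joins parallel fibers to Purkinje cells and holds those synapses together. Cbln3 is a granule cell protein that is secreted when it assembles with Cbln1, Cbln2 is made in neurons of cortex and brainstem, and Cbln4 binds the netrin receptors DCC and neogenin as well as neurexins.

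The study profiled brain regions linked to energy balance, from frozen brain sections of C57BL/6NTac mice, and its atlas spans 24 groups. The 18 adult groups (57 libraries, males, postnatal day 56) are 4 samples of cerebellar cortex, namely CENT2 and CUL4-5 of the anterior vermis, UVU (uvula) of the posterior vermis and FL (flocculus), the cerebellar nuclei (CBN), and 13 regions outside the cerebellum. Those 13 are the hypothalamic ARH, DMH, LHA, PVH and VMH, the cortical ACA, ENT and FRP, the nucleus accumbens (ACB), the ventral tegmental area (VTA) and the hindbrain nuclei DVC, NTS and PB. The others are 4 embryonic groups (9 libraries, E14.5: forebrain F, midbrain M, hindbrain H and the hypothalamic THy/PHy) and mouse embryonic stem cells (mESC) as lines B6-1 and B6-2 (4 libraries, C57BL/6), each line a single clone passaged off its feeder cells. No introduced allele or treatment is labelled for any group. Adult libraries were made from tissue punches pooled over several mice, except for 1 ACB sample from a single mouse, different regions came from the same few mice, and adult and embryonic tissue went through different preparation batches, so that stage and batch cannot be told apart. Groups held 1 (F) to 4 libraries, and p-values measure the spread between these pools.

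Total estimated counts ran from 9074581 to 22229582 per library, with a median of 17016935. VTA 1 stood apart, with 39.6% of its TPM on mitochondrial genes against a median of 7.49% and a next highest value of 22.6% in H 1. Of 37 regional and cell type markers, 30 were highest in the group they mark, and the exceptions included Sim1, Trh, Fezf1, Calca, Dbh and Slc17a7. Libraries DVC 2, PB 1 and VMH 2 carried at least 1 TPM of the granule cell gene Gabra6, and results that rest on them are given with and without them.

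The 4 genes lie on different chromosomes in GRCm38 and have short coding sequences. Cbln1 occupies chr8:87468405-87472609 on the minus strand and has a coding length of 582 bases. Cbln3 occupies chr14:55878913-55884392 on the minus strand (594) and Cbln4 chr2:172036233-172043466 on the minus strand (597). Coding identity was highest between Cbln1 and Cbln2 (74.9%) and lowest between Cbln3 and Cbln4 (64.1%).

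With reads of 33 bases, whether the members can be told apart depends on the stretches they share. The longest run common to the coding sequences of any pair, from a single transcript per gene, was 21 bases, shorter than a read. Over all annotated transcripts, compared on the sense strand only, no 31-base word was shared between members. Cbln3 shared 142 of its 4865 distinct 31-base words (2.92%) with 856 other genes, and the other members shared none. The 90 coding bases around the longest run that joins Cbln1 to its granule cell partner Cbln3 are shown because these are the 2 members measured together in the lobules, with the shared run in capitals. They read across the junction of exons 1 and 2, on the minus strand in GRCm38, at chr8:87471772-87472026 for Cbln1 and chr14:55883547-55883961 for Cbln3.
Cbln1: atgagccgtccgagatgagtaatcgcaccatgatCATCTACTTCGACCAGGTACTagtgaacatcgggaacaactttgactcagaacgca
Cbln3: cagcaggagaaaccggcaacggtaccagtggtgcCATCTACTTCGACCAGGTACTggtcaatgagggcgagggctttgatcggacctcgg

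The corresponding stretch for Cbln1 and Cbln4, the pair whose levels ran closest together outside the cerebellum, lies inside exon 1 at chr8:87472102-87472191 and chr2:172042151-172042240, minus strand, and its shared run is 14 bases.
Cbln1: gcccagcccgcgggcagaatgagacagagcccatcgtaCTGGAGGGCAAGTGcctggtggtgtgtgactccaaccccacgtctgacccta
Cbln4: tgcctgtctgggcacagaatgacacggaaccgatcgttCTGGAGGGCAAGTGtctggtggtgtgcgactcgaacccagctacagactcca

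Cbln1 was abundant in the cerebellar cortex and present in every other group. It measured 723, 798, 1020 and 1103 TPM in the 4 CENT2 libraries, and 985, 999, 1159 and 1020 TPM in CUL4-5. UVU gave 862, 1026 and 948 TPM and FL 925, 637, 568 and 488 TPM. All 15 lobule libraries lay above the highest library from outside the cerebellum, VMH 1 at 226 TPM, although the 39 outside libraries never fell below 2.63 TPM. The mean of the 4 lobule groups was 888 TPM against 70.6 TPM over the 13 outside regions, a log2 fold change of 4.18 (SE 0.11, adjusted p = 7.5e-36, edgeR quasi-likelihood test with Benjamini-Hochberg adjustment). These are bulk tissues, in which fewer cells of a type and less RNA per cell cannot be told apart.

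Cbln3 separated lobules from everything else more sharply. It measured 468, 550, 719 and 673 TPM in CENT2, 660, 761, 773 and 689 TPM in CUL4-5, and 556, 721 and 681 TPM in UVU. FL gave 517, 358, 358 and 260 TPM. Outside the cerebellum the 39 libraries ran from 0.204 to 5.19 TPM with a median of 0.527 TPM, and 8 of them reached 1 TPM. Group means were 587 TPM in the lobules and 0.846 TPM outside (log2 fold change 9.70, SE 0.18, adjusted p = 7.0e-43), with no overlap. Without VTA 1, DVC 2, PB 1 and VMH 2, chosen after seeing the data, the difference was 10.17. DVC 2, PB 1 and VMH 2 held the highest Cbln3 outside the cerebellum, so leaving them out widens the difference by construction. Lobules held 96.7% of the sum of Cbln3 over the 24 group means, against 70.1% for Cbln1.

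Cbln2, which lies at chr18:86711110-86718283 on the plus strand in GRCm38 (675 coding bases), and Cbln4 ran the other way. Cbln2 reached at most 10.3 TPM in a lobule library, with a median of 2.17 TPM over the 15, and 4 of those libraries held 3 counts or fewer. Cbln4 had a lobule median of 1.46 TPM, and values above 5 TPM came from CENT2 1 (11.3 TPM) and the 4 FL libraries. Outside the cerebellum Cbln2 ran from 2.56 to 77.4 TPM (median 27.5 TPM) and Cbln4 from 2.76 to 42.5 TPM (median 16.3 TPM), so lobules and outside regions overlapped for both. Fitted differences, lobules against outside, were -3.45 for Cbln2 (SE 0.28, adjusted p = 5.5e-16) and -2.72 for Cbln4 (SE 0.25, adjusted p = 4.1e-14). Without CENT2 1, CUL4-5 1 and CUL4-5 4, the vermal libraries highest in Cbln2 and chosen after seeing the data, they were -4.69 and -3.78. Leaving out high lobule libraries widens these differences by construction. Without FL the Cbln4 difference was -3.70. Without UVU 1 the Cbln2 difference was -4.20.

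With a call set at an adjusted p under 0.05 and a log2 fold change above 1 in size, 2 of 4 members were higher in lobules and 2 lower, where 8.49% and 10% of all 19980 genes were. Within the lobules Cbln1 made up 58.9% to 62.2% of the summed TPM of the family, as the group mean of library shares, and Cbln3 35.4% to 40.8%. Cbln1 led the family in all 15 lobule libraries.

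**Figure D1:**
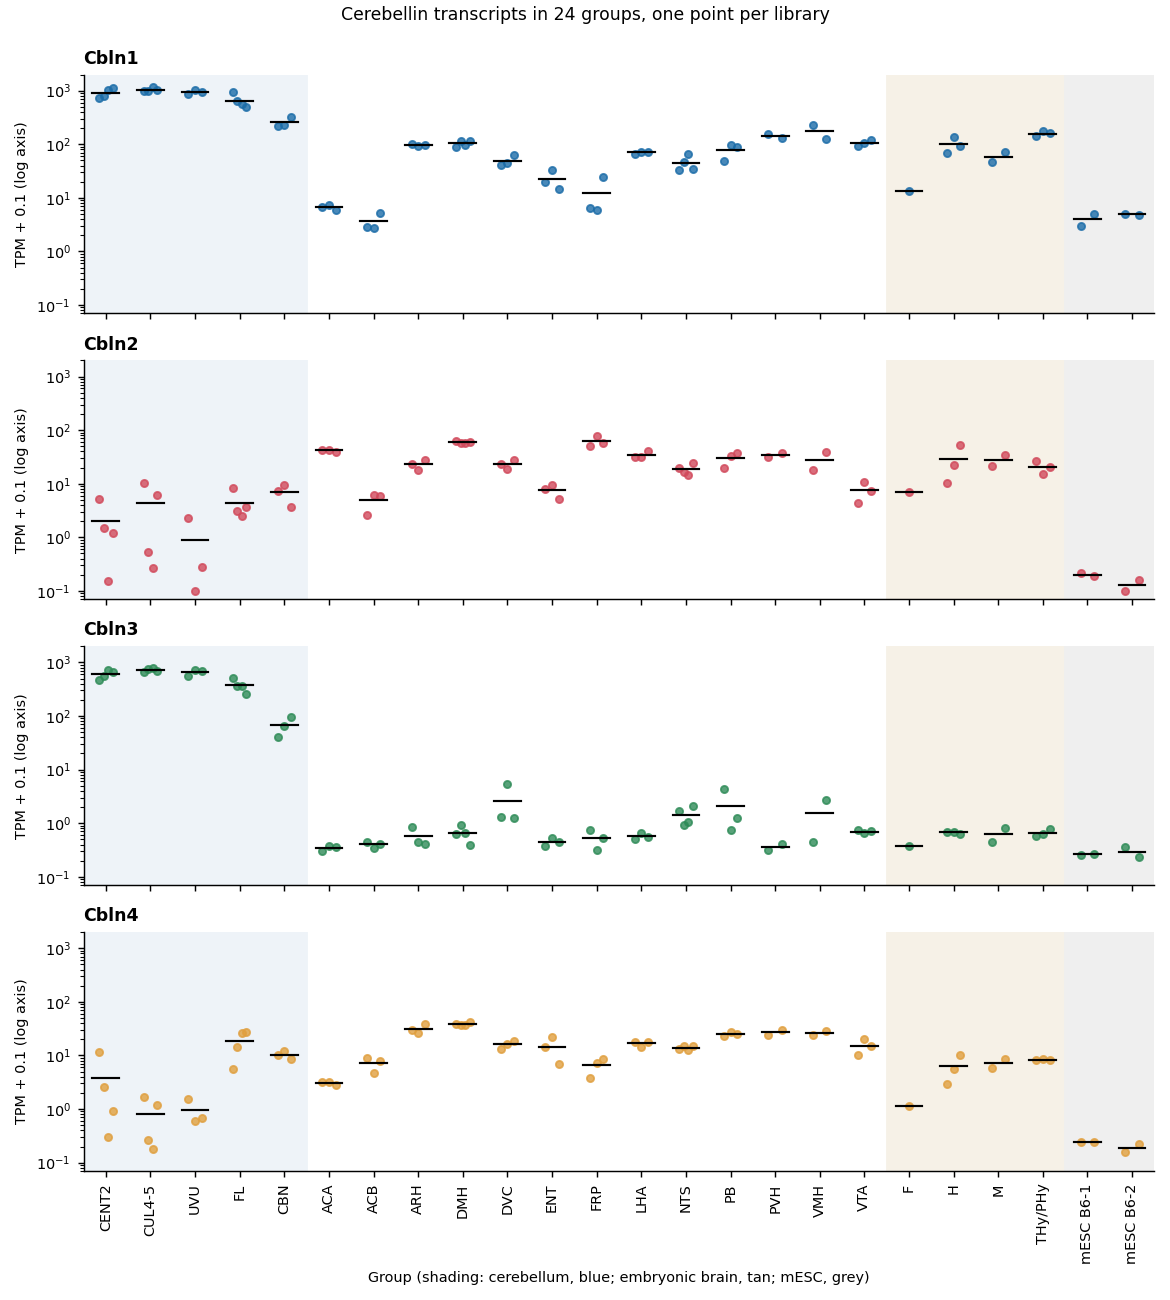
Level of each cerebellin (TPM + 0.1, log axis) in the 24 groups, with points for libraries and lines for group means. Cbln1 and Cbln3 are highest in the lobules, where Cbln3 stands at 260 to 773 TPM against at most 5.19 TPM outside the cerebellum, while Cbln2 and Cbln4 peak outside it.

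The cerebellar nuclei lay between the lobules and the rest of the brain for Cbln1 and Cbln3. Cbln1 measured 216, 231 and 329 TPM in the 3 CBN libraries and Cbln3 40.4, 65.3 and 93.8 TPM. Both were below every lobule library, and Cbln3 was above every outside library, whereas Cbln1 overlapped with VMH 1. Against the lobules the differences were -1.55 for Cbln1 (SE 0.27, adjusted p = 2.3e-06) and -2.89 for Cbln3 (SE 0.36, adjusted p = 2.4e-09). Against the 13 outside regions they were 2.63 for Cbln1 (SE 0.18, adjusted p = 7.0e-18) and 6.81 for Cbln3 (SE 0.21, adjusted p = 1.4e-31). The CBN libraries enter both comparisons.

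For the other members the fitted level of the nuclei was above the average of the 4 lobule groups, although not above each of them. Cbln2 measured 7.28, 9.498 and 3.57 TPM in CBN and Cbln4 9.90, 11.97 and 8.62 TPM. Individual lobule libraries overlapped with these ranges for both genes, and for Cbln4 the FL mean of 18.1 TPM was above the CBN mean of 10.2 TPM. Fitted differences against the lobules were 1.76 for Cbln2 (SE 0.47, adjusted p = 0.00132) and 2.18 for Cbln4 (SE 0.39, adjusted p = 4.7e-06). Without CENT2 1, CUL4-5 1 and CUL4-5 4, the vermal libraries highest in Cbln2, they were by construction larger, at 3.00 and 3.26. Without FL the Cbln4 difference was 3.16, and without UVU 1 the Cbln2 difference was 2.50. All 4 members were therefore called, 2 in each direction, where 11% of genes were higher in CBN and 5.47% lower. Against the outside regions Cbln2 was lower (-1.70, SE 0.47, adjusted p = 0.0026), while Cbln4 gave -0.54 (SE 0.39, adjusted p = 0.282), with 8.74% of genes higher and 4.85% lower.

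The nuclei libraries also carried markers of other tissue. The choroid plexus markers Ttr, Folr1, Kl and Clic6 summed to between 3523 and 12663 TPM in CBN, and 3 lobule libraries, UVU 1, FL 1 and FL 2, held between 1797 and 3048 TPM. The 4 oligodendrocyte markers summed to 10110 to 16848 TPM in CBN against 1101 to 3298 TPM in the vermal lobules. Granule cell markers summed to 191 to 353 TPM in CBN against 1035 to 2215 TPM in the lobules, and each of the 6 averaged at least 1 TPM in CBN. The part of these cells in the differences was not tested.

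Cbln1 and Cbln3 did not fall in proportion. Their TPM ratio was 1.54 in the lobules and 4.02 in CBN (geometric means), and the log2 ratio was 2.01 ± 0.341 (SD, n = 3) in CBN against 0.624 ± 0.145 (SD, n = 15) in the lobules, with no overlap (two-sided exact permutation test, p = 0.00123, the smallest the design allows; adjusted p = 0.00293 over 4 comparisons). Set against Gabra6, the GABA-A receptor subunit of granule cells, Cbln3 kept similar ranges, with TPM ratios of 0.919 to 1.32 in the lobules and 1.11 to 1.40 in CBN. Ratios of Cbln1 to Gabra6 were 1.36 to 2.20 in the lobules and 3.88 to 7.50 in CBN, without overlap. Gabra6 is among the 6 granule cell markers, and ratios to the other markers are not given. Over the 18 adult regions, CBN included, it was also the gene most like Cbln3 (Pearson's r = 0.999). Similar ratios of Cbln3 to Gabra6 follow from that likeness and are not separate support.

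**Figure D2:**
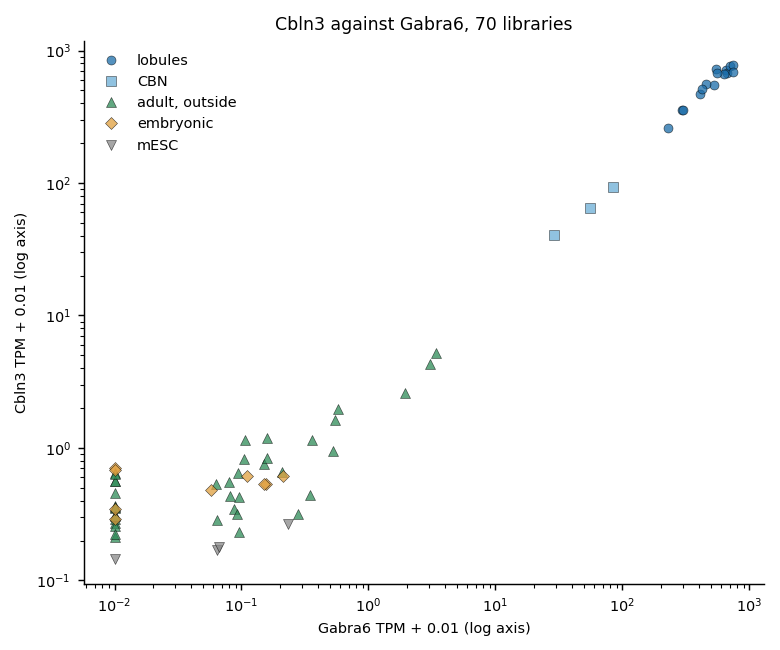
Cbln3 against the granule cell gene Gabra6 by library, both as TPM + 0.01 on log axes, over all 70 libraries. Lobule and CBN libraries fall along a band, with Cbln3 at 0.919 to 1.40 times Gabra6, and the 3 outside libraries with at least 1 TPM of Gabra6 (DVC 2, PB 1 and VMH 2) hold the highest Cbln3 outside the cerebellum.

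Among the 4 lobule groups, FL differed from the vermis. Cbln4 measured 5.54, 14.2, 25.8 and 27.0 TPM in the 4 FL libraries. In the 11 vermal libraries it ran from 0.0814 to 11.3 TPM with a median of 0.816 TPM, and only CENT2 1, at 11.3 TPM, exceeded the lowest FL library. The fitted difference was 3.90 (SE 0.38, adjusted p = 8.4e-12), on group means of 18.1 and 1.76 TPM. Calls within the cerebellar cortex used an adjusted p under 0.05 with no fold limit, and 15.6% of genes were higher and 15% lower in FL, so a call in this comparison was common.

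Cbln3 was lower in FL by the same test (-0.74, SE 0.28, adjusted p = 0.0397), a call close to the threshold that did not hold in 7 of 15 fits leaving out 1 lobule library. Cbln1 gave -0.43 (adjusted p = 0.148) and Cbln2 1.18 (SE 0.50, adjusted p = 0.0661). Without CENT2 1, CUL4-5 1 and CUL4-5 4, the vermal libraries highest in the glutamatergic marker Slc17a6, Cbln2 was higher in FL by 2.83 and Cbln4 by 5.33. These libraries were chosen after the data were seen. They are also the vermal libraries highest in Cbln2, and CENT2 1 is the highest in Cbln4. Leaving them out widens both differences by construction, so no p-value is given. The log2 ratio of Cbln1 to Cbln3 was 0.81 ± 0.102 (SD, n = 4) in FL and 0.556 ± 0.0868 (SD, n = 11) in the vermis (two-sided exact permutation test, p = 0.00147, adjusted p = 0.00293). FL and vermal ratios overlapped, since CENT2 4 reached 0.713 and FL 3 was at 0.666.

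Other markers moved with FL. Slc17a6, the vesicular glutamate transporter of cerebellar nuclei and brainstem neurons, measured 27.3, 45.9, 49.3 and 60.8 TPM in the 4 FL libraries and ranked them as Cbln4 did. The vermal libraries held 0.233 to 29.4 TPM of Slc17a6 and the CBN libraries 94.2 to 112 TPM. Oligodendrocyte markers summed to 7818 to 10746 TPM in FL, above every vermal library. Gabra6 ran from 227 to 421 TPM in FL and from 408 to 750 TPM in the vermis. The 2 unipolar brush cell markers summed to 15.8 to 32.5 TPM in FL and 8.40 to 51.3 TPM in the vermis, with UVU 3 highest. Their part in the Cbln4 and Cbln3 differences was not tested.

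Within the vermis the traces of Cbln2 and Cbln4 were uneven. Cbln2 measured 10.3 TPM in CUL4-5 1 and 6.05 TPM in CUL4-5 4, but 0.4298 and 0.165 TPM in the other CUL4-5 libraries. CENT2 gave 5.16, 1.42, 0.0545 and 1.13 TPM and UVU 2.17, 0 and 0.184 TPM, where 0 counts allow up to 3 by counting error alone. CUL4-5 1, CUL4-5 4 and CENT2 1, the vermal libraries highest in Cbln2, were also those highest in Slc17a6 (29.4, 19.8 and 18.9 TPM). Over the 11 vermal libraries log2 Cbln2 and log2 Slc17a6 had a Pearson's r of 0.886 and a Spearman's rho of 0.891, and r was 0.897 without the 2 libraries farthest from the median of Slc17a6. For Cbln4 r was 0.725, rho 0.818, and r without those libraries 0.609. Both are descriptions over libraries that share mice, and each pair of values shares its library and depth.

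**Figure D3:**
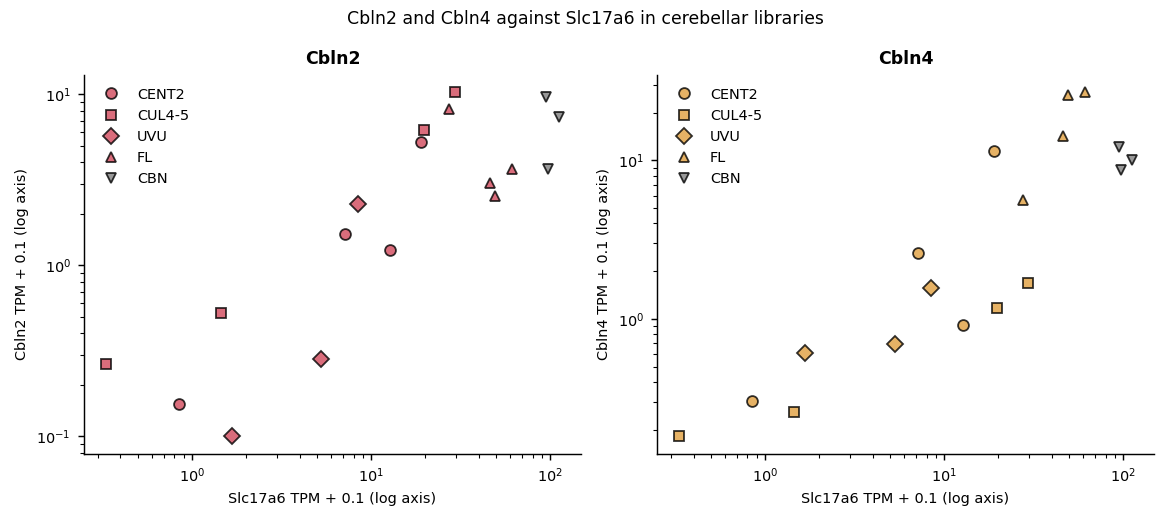
Cbln2 and Cbln4 against Slc17a6 in the lobule and CBN libraries, as TPM + 0.1 on log axes, 1 point per library. Vermal libraries with under 2 TPM of Slc17a6 hold under 1 TPM of either cerebellin, and the FL libraries combine 27.3 to 60.8 TPM of Slc17a6 with 5.54 to 27.0 TPM of Cbln4.

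The contrasts inside the vermis called 1 member. Cbln4 was lower in CUL4-5 (1.59, 0.160, 0.0814 and 1.08 TPM) than in CENT2 (11.3, 2.51, 0.202 and 0.816 TPM), at -2.31 (SE 0.60, adjusted p = 0.0107), where 4.31% of genes were lower and 0.475% higher. The groups overlapped, and without CENT2 1 the difference was -0.66 (adjusted p = 0.906). UVU against CENT2 and CUL4-5 called no member by the edgeR test, where 1.41% of genes were higher and 1.8% lower, and the differences were -0.05 for Cbln1, -1.97 for Cbln2 (adjusted p = 0.21), 0.00 for Cbln3 and -0.95 for Cbln4 (adjusted p = 0.697). Without CENT2 1, CUL4-5 1 and CUL4-5 4 the Cbln2 and Cbln4 differences turned to 0.50 and 1.17 and that of Cbln4 in CUL4-5 against CENT2 was -3.27 (adjusted p = 0.0749). At an unadjusted p under 0.05 there was 1, Cbln2, and neither DESeq2 nor limma called a member.

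Outside the cerebellum the family changed its leading member from region to region. Cbln1 led in 30 of the 39 adult libraries, Cbln2 in 7 and Cbln4 in 2. Cbln2 led in all 6 libraries of ACA and FRP, where it made up on average 81.2% and 77.3% of the summed TPM of a library. Cbln1 made up 82.5% in VTA, 74.5% in VMH and 69.8% in PVH. In ACB, where the family summed to 15.7 TPM, the lowest of the 18 adult regions, Cbln4 held 45.4%, Cbln2 30.8% and Cbln1 21.8%.

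**Figure D4:**
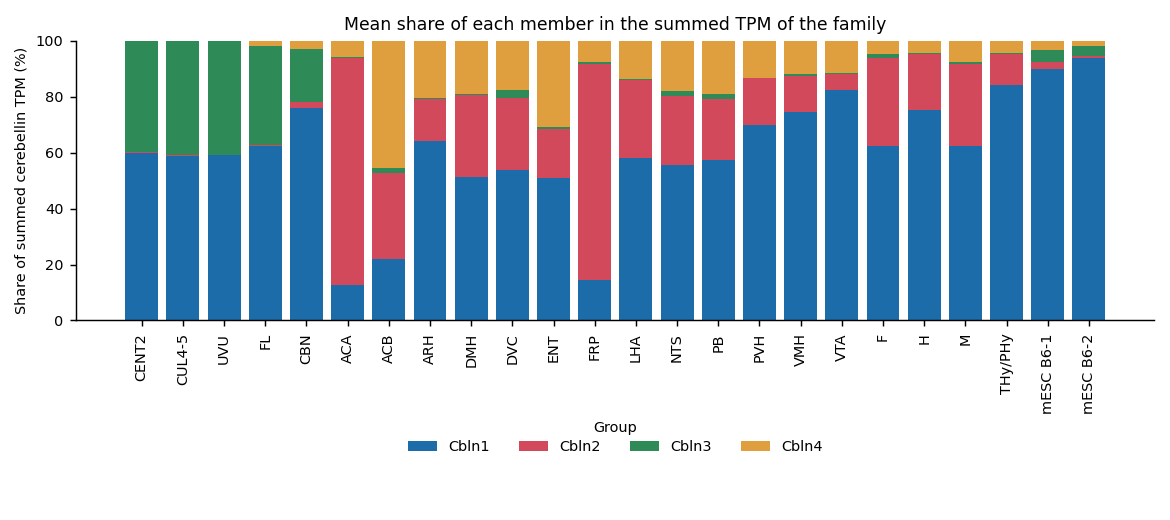
Share of each cerebellin in the summed TPM of the family (percent, mean over the libraries of each of the 24 groups), as stacked bars. Cbln1 and Cbln3 fill the lobule bars, Cbln2 fills 81.2% of ACA and 77.3% of FRP, and Cbln4 is largest in ACB at 45.4%.

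Among the adult regions outside the cerebellum, mean Cbln1 was highest in VMH and PVH, followed by VTA, DMH and ARH. VMH measured 226 and 128 TPM, PVH 156 and 134 TPM, and DMH 89.4, 113, 98.1 and 117 TPM. Of all outside libraries, VMH 1 held the highest summed VMH markers Nr5a1 and Fezf1 (107.9 TPM). It also held the highest summed PVH markers Sim1 and Trh (284.5 TPM). ARH gave 101, 93.0 and 98.3 TPM, and VTA 93.7, 107 and 122 TPM. PB, at 49.5, 96.8 and 88.8 TPM, had a higher mean than the hypothalamic LHA, at 65.9, 72.9 and 72.3 TPM, though their libraries overlapped. At the other end, ACB gave 2.73, 2.63 and 5.22 TPM and ACA 6.65, 7.18 and 5.72 TPM. These 6 libraries lay far below the lowest hypothalamic library, and ACB did not overlap with any other adult region.

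When each region was compared with the other 12, which reuses the same libraries as controls in every comparison, Cbln1 was higher in VMH (2.06), VTA (1.89), PVH (1.77), DMH (1.2) and ARH (1.09), with adjusted p-values of at most 2.2e-05 by the edgeR test. It was lower in ACB (-3.93), ACA (-2.98) and FRP (-2.03). The FRP libraries gave 6.25, 5.76 and 24.4 TPM, and without FRP 3 the difference was -2.89. ENT (-0.92), PB (0.85) and LHA (0.76) passed the p threshold but not the fold limit, and DVC and NTS passed neither. PB was called at 1.10 without PB 1 (adjusted p = 7.2e-04) and ENT at -1.28 without ENT 2 (adjusted p = 0.0011). Folds here come from averages on the log scale, so LHA can have a positive value although its mean of 70.4 TPM is no higher than the 70.7 TPM of the others. As background, the shares of all genes called higher and lower were 4.4% and 1.91% in VMH, 6.65% and 3.76% in VTA, 2.42% and 0.801% in PVH, 3.87% and 1.02% in DMH, 7.9% and 3.2% in ARH, 6.39% and 5.37% in ACB, 6.84% and 7.16% in ACA, and 6.33% and 4.74% in FRP. They were 6.22% and 5.13% in ENT, 2.37% and 1.07% in LHA, 4.54% and 2.64% in DVC, 5.79% and 3.8% in NTS, and 3.38% and 1.63% in PB.

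Cbln2 followed another order. FRP measured 50.9, 77.4 and 58.4 TPM, DMH 61.9, 56.9, 57.1 and 61.2 TPM, and ACA 43.4, 43.2 and 39.6 TPM. FRP and DMH lay above all other regions and ACA overlapped only with LHA, whose highest library gave 40.0 TPM, while ENT, the remaining cortical region, had 7.80, 9.39 and 5.15 TPM. VTA gave 4.21, 10.9 and 7.37 TPM and ACB 2.56, 5.99 and 5.87 TPM. Cbln2 was higher in FRP (1.62, adjusted p = 7.9e-05), DMH (1.36, adjusted p = 6.8e-04) and ACA (1.03, adjusted p = 0.0153), where 6.33%, 3.87% and 6.84% of genes were. It was lower in ACB (-2.44), ENT (-1.68) and VTA (-1.32), where 5.37%, 5.13% and 3.76% of genes were. The VTA call was lost without VTA 1, the library high in mitochondrial genes, or without VTA 3 (adjusted p up to 0.0806), and the ACA call without ACA 1 or ACA 2 (adjusted p up to 0.0645).

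Group means of Cbln4 ran from 2.98 TPM in ACA to 38.5 TPM in DMH. DMH measured 38.8, 36.6, 36.4 and 42.5 TPM, ARH 29.6, 26.5 and 38.3 TPM, and PVH 23.9 and 30.3 TPM. At the low end ACA gave 3.03, 3.16 and 2.76 TPM, below every library of the other 12 regions. Cbln4 was higher in DMH (1.32, adjusted p = 3.7e-04) and lower in ACA (-2.48, adjusted p = 1.9e-05), FRP (-1.32, adjusted p = 0.00954) and ACB (-1.23, adjusted p = 0.0143), where the shares of all genes were those given for the same regions above. The FRP call was lost without FRP 1 (adjusted p = 0.109) and the ACB call without ACB 2 (adjusted p = 0.114). ARH reached 0.97, just under the fold limit, and 1.05 without ARH 2. DMH was the region in which 3 members, Cbln1, Cbln2 and Cbln4, were each called higher.

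**Figure D5:**
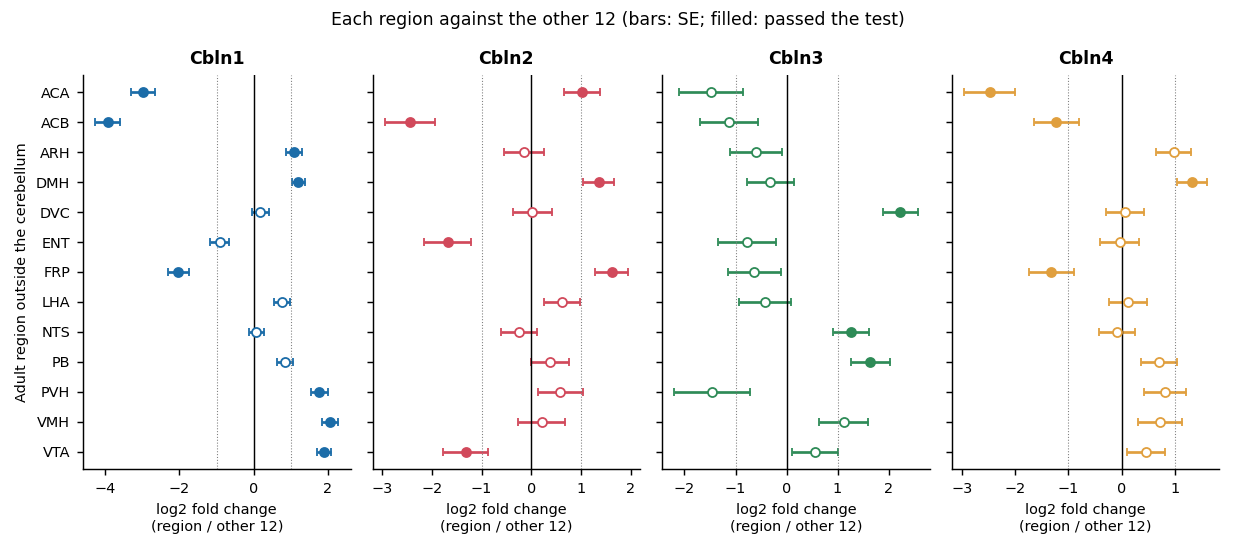
Log2 fold change of each cerebellin in each of 13 adult regions against the other 12, with error bars of 1 SE and filled points for calls. Cbln1 spans -3.93 (ACB) to 2.06 (VMH), Cbln2 is called higher in FRP, DMH and ACA, and the Cbln3 calls fall in DVC, PB and NTS.

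Cbln3 outside the cerebellum was low, and its calls rested on few libraries. It was called higher in DVC (2.23, adjusted p = 3.9e-07), PB (1.64, adjusted p = 9.3e-04) and NTS (1.26, adjusted p = 0.00272), where 4.54%, 3.38% and 5.79% of genes were. DVC measured 1.18, 5.19 and 1.13 TPM, PB 4.30, 0.633 and 1.14 TPM, and NTS 1.61, 0.836, 0.944 and 1.96 TPM. The highest values came from DVC 2 and PB 1, and VMH 2 held 2.58 TPM against 0.348 TPM in VMH 1. These are the 3 outside libraries with at least 1 TPM of Gabra6 (3.40 TPM in DVC 2, 3.05 TPM in PB 1 and 1.93 TPM in VMH 2), and in the other 36 Cbln3 stayed between 0.204 and 1.96 TPM. Without DVC 2 the DVC difference was 1.06 (adjusted p = 0.0843), and without PB 1 the PB difference was 0.36 (adjusted p = 0.77). VMH, at 1.12 (adjusted p = 0.0918), turned to -1.69 without VMH 2. The NTS difference stayed called in each fit that left out 1 NTS library. Every NTS library, however, held 5.55 to 13.7 TPM of the Purkinje cell gene Pcp2, beside 0.148 to 0.569 TPM of Gabra6. Hypothalamic and cortical libraries held at most 1.56 TPM of Pcp2. For Gabra6 they overlapped with NTS, with 0.334 TPM in ENT 2. The part of cerebellar tissue in the NTS value was not tested.

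Taking the 5 hypothalamic regions together against the other 8, Cbln1 was higher by 2.06 (SE 0.13, adjusted p = 2.8e-19) and Cbln4 by 1.18 (SE 0.20, adjusted p = 2.3e-06). Cbln2 gave 0.79 (SE 0.22, adjusted p = 0.00248), under the fold limit, and Cbln3 -0.51 (adjusted p = 0.171). So 2 of 4 members were called higher and none lower, where 4.78% and 2.5% of genes were. Group means were 118.8 against 40.5 TPM for Cbln1 and 28.0 against 12.6 TPM for Cbln4, and libraries of the 2 sets overlapped for both, VTA and PB reaching into the hypothalamic range of Cbln1.

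Ordered by level, most neighbouring groups could not be separated. The gap between neighbours was smaller than the larger of their SDs in 16 of 23 pairs for Cbln1, 19 for Cbln2 and Cbln3, and 18 for Cbln4. For Cbln1 the order opened with CUL4-5 (1041 ± 79.9 TPM, SD, n = 4), UVU (946 ± 81.8 TPM, n = 3), CENT2 (911 ± 180 TPM, n = 4), FL (654 ± 190 TPM, n = 4) and CBN (259 ± 61.7 TPM, n = 3), and closed with ACB (3.53 ± 1.47 TPM, n = 3). For Cbln2 FRP (62.2 ± 13.7 TPM, n = 3) and DMH (59.3 ± 2.63 TPM, n = 4) led and were not separated. For Cbln4 DMH (38.5 ± 2.84 TPM, n = 4) led, followed by ARH (31.5 ± 6.11 TPM, n = 3), PVH (27.1 ± 4.48 TPM, n = 2) and VMH (26.4 ± 3.37 TPM, n = 2).

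In embryonic brain Cbln1 was already high in the hypothalamic samples. It measured 143, 173 and 159 TPM in THy/PHy, 69.4, 137 and 94.3 TPM in H, 45.8 and 71.1 TPM in M and 13.6 TPM in the single F library. All THy/PHy libraries lay above those of H and M, by 1.04 (SE 0.27, adjusted p = 0.008), the only member called there, where 1.44% of genes were higher and 1.74% lower. This call was lost in 4 fits that left out 1 library. The closest pair, THy/PHy 1 (143 TPM) and H 2 (137 TPM), had 2.84% and 11.8% of TPM on mitochondrial genes. Their order without those genes was not tested. H against THy/PHy and M called no member by the edgeR test, where 6.21% of genes were higher and 1.82% lower, and 0 members had an unadjusted p under 0.05 or a call by DESeq2 or limma.

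Against adult tissue the embryonic samples were low in Cbln4. THy/PHy measured 8.08, 8.36 and 7.98 TPM, below every one of the 14 adult hypothalamic libraries (14.0 to 42.5 TPM), at -1.69 (SE 0.44, adjusted p = 7.0e-04). H measured 2.87, 5.58 and 9.95 TPM, below the 10 adult hindbrain libraries (12.4 to 26.9 TPM), at -1.48 (SE 0.45, adjusted p = 0.0032). Shares of genes called in these comparisons were high, at 18.2% higher and 20% lower for the hypothalamus and 23% higher and 21.1% lower for the hindbrain, and stage went with preparation batch.

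Cbln1 did not pass both limits in either stage comparison, with 0.47 in the hypothalamus (adjusted p = 0.0689) and 0.85 in the hindbrain (adjusted p = 0.00158, under the fold limit). Cbln2 gave -0.68 (adjusted p = 0.17) and 0.23. Cbln3 was lower in H than in adult hindbrain (-1.60, SE 0.50, adjusted p = 0.00394), with 0.520 to 0.599 TPM in H against 0.633 to 5.19 TPM, but by -0.78 without VTA 1, DVC 2, PB 1 and VMH 2, under the fold limit, and gave 0.13 in the hypothalamus. Cbln3 never exceeded 0.701 TPM in an embryonic library. The stage differences of hypothalamus and hindbrain were not shown to differ from each other for any member, the differences between them running from -0.91 (Cbln2, adjusted p = 0.268) to 1.73 (Cbln3, SE 0.74, adjusted p = 0.0699) in edgeR, where 15.3% of genes were higher and 15.1% lower. Forebrain was a single library and was not tested.

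The stem cells held little of the family. Cbln1 measured 2.84 and 4.97 TPM in line B6-1 and 4.96 and 4.72 TPM in B6-2, within the range of the ACB libraries. Cbln2, Cbln3 and Cbln4 stayed at or below 0.111, 0.255 and 0.143 TPM, with at most 3 counts of Cbln2 in each of the 4 libraries.

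The receptors and related ligands of the family are given for 9 tested genes. These were the C1q-like ligands C1ql1 to C1ql4, the neurexin Nrxn3, the receptor gene Grid1, the netrin receptors Dcc and Neo1, and Adgrb3, a receptor of C1q-like proteins. Nrxn2 was left out of the test because the transcripts counted do not cover all of its TPM, and averaged 458 TPM in lobules and 283 TPM outside. C1ql4 was at 0 counts in all CUL4-5 libraries, so that its folds depend on how zeros are fitted and are not given, and its fit in lobules against outside had no usable error.

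In lobules against outside, 4 of the 9 were called lower, where 10% of all genes were, with a median of -1.55 beside 0.00 over all genes. Grid1 was lower, at 8.51 to 16.7 TPM in lobule libraries against 17.3 to 52.0 TPM outside (-1.55, adjusted p = 1.9e-31), with no overlap. Dcc was lower by the same test (-2.26, means of 1.19 and 5.33 TPM), as were C1ql2 (-3.23) and C1ql3 (-2.98). Nrxn3 (0.31), Neo1 (-0.32) and Adgrb3 (0.12) stayed inside the fold limit.

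In CBN against lobules, 4 of the 9 were called higher, where 11% of all genes were, with a median of 0.53 beside 0.03 over all genes. They were C1ql1 (1.60), C1ql2 (1.67), C1ql3 (3.36) and the sparse C1ql4 (0.465 to 4.34 TPM in CBN). The fold of C1ql1 averages the 4 lobule groups on the log scale, while its mean level was 20.5 TPM in CBN and 20.6 TPM in the lobules, and the CBN libraries (17.1 to 23.1 TPM) lay inside the lobule range of 2.03 to 122 TPM. CBN stood above every vermal library for C1ql1 but below the FL mean of 71.3 TPM. In FL against the vermis 3 were called higher and 2 lower, where 15.6% and 15% of all genes were and no fold limit applied, with a median of 0.17 beside 0.00. C1ql1, the C1q-like ligand that climbing fibers give to Purkinje cells, measured 22.2, 61.3, 80.0 and 122 TPM in FL 1, FL 2, FL 3 and FL 4 and 2.03 to 7.21 TPM in the vermis (4.39, SE 0.26, adjusted p = 9.5e-19). C1ql1 ranked the FL libraries as Cbln4 and Slc17a6 did. Nrxn3 (-0.53) and Adgrb3 (-0.50) were lower.

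In the hypothalamus against the other outside regions C1ql2 was the 1 of the 9 called (2.37, higher, where 4.78% of genes were) and the median was 0.16 beside 0.00. The fold of C1ql2 comes from averages on the log scale, while its means were close, at 15.22 and 13.25 TPM. VTA, at 38.1 to 118.7 TPM, lay above every hypothalamic library (at most 35.4 TPM). Grid1 (0.32) was inside the fold limit. With stage, Dcc was the 1 of the 9 called higher, by 2.43 in THy/PHy (means of 30.9 and 5.83 TPM) and by 3.46 in H (40.9 and 4.19 TPM). In both stage comparisons 3 were lower, C1ql2, C1ql3 and Grid1 (-2.18 in THy/PHy and -1.63 in H), with list medians of -0.95 and -0.72 beside 0.00 and 0.02. Of all genes 18.2% were higher and 20% lower in THy/PHy, and 23% and 21.1% in H. Dcc was higher and Cbln4, its ligand, lower in both.

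The genes most alike in pattern were sought over the log2 group means of the 18 adult regions, among 13918 genes with at least 5 TPM in 1 region. For Cbln3 these were Gabra6 (Pearson's r = 0.999), Fat2 (0.998), Crtam (0.997), Hes3 (0.991) and Msx2 (0.99). For Cbln1 they were Mtss1 (0.949), Slc41a3, Zfp768, Ndufv3 and Uncx, for Cbln2 Ankrd34c (0.914), Dscam, Ccdc85a, Tox and Rangap1, and for Cbln4 Fasn (0.944), Vwc2, Tox2, Pcsk1n and Htr7. The points share the same mice, and the contrast of cerebellum with the rest carries much of the spread for Cbln1 and Cbln3. The lists therefore do not assign a member to a cell type.

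Over the 13 regions outside the cerebellum (13495 genes), the list for Cbln1 was headed by Tox2 (r = 0.953), for Cbln2 by Dtx4 (0.89) and for Cbln4 by Mtss1 (0.959), the gene most like Cbln1 over all adult regions. Cbln1 and Cbln4 themselves had an r of 0.88 over these 13 regions, against 0.25 for Cbln1 and Cbln2 and 0.134 for Cbln2 and Cbln4. Over all 18 regions the value for Cbln1 and Cbln4 was -0.202.

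Shares of annotated transcripts are given as values without a test. Cbln3 was carried by its long transcript, with 99.4% of its TPM in lobules and 96.1% outside. For Cbln1 the most abundant of 3 transcripts gave 50.2% in lobules, 54.2% outside and 60.8% in the embryonic brain, and for Cbln2 the most abundant of 4 gave 50.5% in lobules, 57% outside and 65.2% in the embryonic brain. A minor Cbln2 transcript made up 10.4% in lobules, where the gene is low, and 2.99% outside, and a minor Cbln1 transcript 17.3% in lobules and 9.57% in the embryonic brain. Cbln4 has a single transcript.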

How the data were processed

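RNA was extracted by the authors from pooled brain punches or stem cells, and poly(A) libraries (KAPA mRNA-Seq) were read for 33 cycles on an Illumina sequencer. Per the submitters' processing notes and methods, reads were converted with CASAVA 1.8.2 and quantified with kallisto on Ensembl GRCm38 transcripts; the strand setting is not given in the sources used here. The authors deposited estimated counts per transcript, TPM per transcript, and TPM per gene as the sum over transcripts.

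From these, gene totals of the estimated counts, rounded to whole numbers, were formed, genes with low counts were removed, and edgeR 4.0.16 (R 4.3.3; TMM scaling, quasi-likelihood test) was fitted to all 24 groups, with contrasts of group averages and Benjamini-Hochberg adjustment over 19980 genes. The ratio of Cbln1 to Cbln3 used log2(TPM + 0.5) and an exact permutation test. Alternatives were DESeq2 1.42.0, limma 3.58.1 on log2(TPM + pseudocount), no filter, adult libraries only, a replicate block, and left-out libraries. On simulated counts for lobules against outside, 197 of 200 changed genes among 18454 had an adjusted p under 0.05. The fold limit was not applied to them, so recovery under the full call rule was not measured. Apart from the changes put in, every simulated group had the same mean for a gene, unlike the real groups. Pools from the same mice are not tied to libraries in the labels, and replicate numbers were not taken to pair the libraries. The correlation of deviations exceeded 0.1 in 40 of 436 pairs of equal number and in 51 of 1095 others (medians 0.01 and -0.01). That share was larger among pairs of equal number, so some dependence between such libraries is possible. The main tests treated libraries as independent. Members, lists and markers were chosen with earlier results of these data known. Named genes were the members, the list of receptors and related ligands, and the 5 genes most alike to each member. Sequences were read from GRCm38 with the GENCODE annotation. Protein sequences are not analysed here, and some genes of the receptor and marker lists are not reported here.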

Additional observations from a re-analysis of the deposited data

How the results depend on the processing

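Values are log2 fold changes of a member unless said otherwise. Of 912 values under other settings, 848 kept their direction and their side of the threshold, 23 fell below it, 13 rose above it, 23 changed sign and 5 counts moved, and of 1140 values with 1 library left out 1084 held, 22 fell below, 11 rose above and 23 changed sign. The calls for all 4 members in lobules against outside and in the cerebellar nuclei against lobules held under every setting tried. Where a value did not hold, the cause was not tested. The replicate block changed none of the 96 member results (Cbln1 in lobules against outside remained at 4.18), and the number of genes called there was 3716 beside 3703. Labels give only replicate numbers, not mice or runs, so the block need not remove an effect of either. Of 52 libraries, 30 had their highest mean correlation with libraries of their own number, so such libraries may share variation.

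FL against the vermis gave 1.40 for Cbln2 by limma with a pseudocount of 0.5 TPM, with or without the filter on low TPM, and 2.09 with 0.1 TPM, all past the threshold, and 2.83 without CENT2 1, CUL4-5 1 and CUL4-5 4, a choice made after seeing the data. For Cbln3 it gave -0.72 by DESeq2, -0.74 with no filter on low counts and -0.85 by limma with 0.1 TPM, none past the threshold. Leaving out 1 library gave 0.76 to 2.17 for Cbln2 and -0.89 to -0.61 for Cbln3. CUL4-5 against CENT2 gave -1.18 for Cbln4 by limma with 0.5 TPM, with or without the filter, -1.62 with 0.1 TPM, -3.27 without the same 3 vermal libraries, and -2.94 to -0.66 leaving out 1 library, and for Cbln2 -1.61 without the 3. UVU against CENT2 and CUL4-5 gave 0.50 for Cbln2 and 1.17 for Cbln4 without the 3, 0.01 for Cbln3 with no filter and 0.00 with adult libraries only or without VTA 1, DVC 2, PB 1 and VMH 2, also chosen after seeing the data. Leaving out 1 library it gave -0.12 to 0.01 for Cbln1, -4.96 (without UVU 1, adjusted p = 0.0277) to -1.38 for Cbln2, -0.09 to 0.10 for Cbln3, and -0.0697 to 0.00825 for the log2 ratio of Cbln1 to Cbln3.

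H against adult hindbrain gave -0.97 for Cbln3 by limma with 0.5 TPM, with or without the filter, and -0.78 without the 4 outside libraries, and leaving out 1 library gave 0.55 to 1.04 for Cbln1 and -0.27 to 0.53 for Cbln2. H against THy/PHy and M gave -0.01, -0.02 and -0.01 for Cbln2 by limma with 0.5 TPM, 0.1 TPM and no filter. Leaving out 1 library it gave -0.09 to 0.41 for Cbln1, -0.20 to 0.63 for Cbln2 and -0.46 to 0.06 for Cbln4, and THy/PHy against H and M gave 0.87 to 1.24 for Cbln1 and -0.11 to 0.38 for Cbln3. THy/PHy against adult hypothalamus gave -0.08 to 0.72 for Cbln3, and the hypothalamus against other regions -1.08 (without VMH 2) to -0.33 for Cbln3.

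Single regions changed sign by limma for Cbln2 in ARH (0.02 and 0.03 with 0.5 and 0.1 TPM), Cbln1 in NTS (-0.01), Cbln3 in VTA (-0.06) and Cbln4 in VTA (-0.05 and -0.04), and without the 4 outside libraries for Cbln3 in DMH (0.14), LHA (0.04) and VMH (-1.45) and Cbln2 in VMH (-0.49). With 1 library of the region left out, values ran from -0.08 to 0.13 for Cbln2 and -0.05 to 0.19 for Cbln4 in DVC, -0.44 to 0.27 for Cbln4 in ENT, -0.16 to 0.21 for Cbln1 in NTS, and -0.45 to 0.65 for Cbln2 and -1.69 to 2.03 for Cbln3 in VMH. The higher call of Cbln2 in ACA fell below the threshold by DESeq2 (1.05, adjusted p = 0.123). The number of 13 regions with a higher call was 0 for Cbln2 by limma with 0.1 TPM against 3, 1 for Cbln3 by limma with 0.5 TPM, with or without the filter, against 3, and 2 for Cbln4 against 1. Counts of 3 or fewer in lobules and stem cells limit Cbln2 and Cbln4 there.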
